A study of Mus musculus with 6 samples.

Results

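The killer cell lectin-like receptors are surface proteins first described on NK cells, and a set of their genes is also read out in CD8+ T cells. The 10 genes described here were listed by name, Klrg1, Klrk1, Klrd1, Klrc1, Klrc2, Klrc3, Klre1, Klrb1c, Klrb1f, and Klra7, and all 10 were found among the 57126 genes of the count table by their gene identifiers. All 10 passed the filter of a count in 3 or more samples, as did 26154 genes in all. RNA was sequenced on day 6 in 6 samples made from CD8+ T cells of OT-I mice, which carry a transgenic receptor for an ovalbumin peptide. The cells came from lymph nodes and spleens and were expanded with nano-aAPCs, nanoparticles that present this peptide on a class I molecule together with anti-CD28. T effector (TEff) replicates 1 to 3 were expanded in mIL-2, and TRM-like replicates 1 to 3, named after tissue-resident memory T cells, in mIL-2, mIL-15, and mTGF-β. The paper names mouse IL-2 for the sequenced cells but human IL-2 in its expansion methods, so the species of IL-2 is uncertain. Both groups thus shared the receptor transgene, the particles, and IL-2, and differed in IL-15 and TGF-β together, so that the parts of these cytokines cannot be told apart. The labels do not say whether the samples of a group came from separate animals or cultures, and p-values therefore measure only the spread between these samples, which may be technical.

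Receptors of this family either restrain or trigger killing and cytokine release. Klrd1 encodes CD94, which pairs with an NKG2 chain to read the class Ib molecule Qa-1. With Klrc1 (NKG2A) the pair is inhibitory through tyrosine-based motifs that recruit phosphatases, and with Klrc2 (NKG2C) or Klrc3 (NKG2E) it signals through the adaptor DAP12. Klrk1 encodes NKG2D, a homodimer that reads stress-induced ligands and whose adaptors include DAP10. Klrg1 encodes an inhibitory receptor for cadherins and is a usual surface marker of short-lived effector CD8+ T cells. Klre1 encodes a receptor that pairs with the products of Klri1 and Klri2. Klrb1c and Klrb1f belong to the NKR-P1 group, and Klra7 encodes Ly49G, an inhibitory receptor for classical class I molecules.

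Apart from Klrg1, which lies on the same chromosome at 122246981 to 122259914, the members lie in the NK gene complex of chromosome 6 (GRCm39). From one end of the complex to the other they are Klrb1c (128755448 to 128766178), Klrb1f (129022864 to 129036800), Klre1 (129554868 to 129562791), Klrd1 (129568677 to 129575738), Klrk1 (129587286 to 129600827), Klrc3 (129616027 to 129620300), Klrc2 (129624459 to 129637652), Klrc1 (129642978 to 129655936), and Klra7 (130195566 to 130210370). Klrb1f, Klre1, and Klrd1 are on the plus strand and the others on the minus strand.

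Promoters were taken from RefSeq (GRCm38.p6), 250 bases before to 50 bases after a start site, for the 8 of 10 members that the table holds. Klrd1 and Klrg1 had no entry. The windows of 5 members are shown because these genes moved in different ways across the samples below: Klrc1, Klrc2, and Klrc3 stood above the TEff samples in the same TRM-like samples, Klrk1 was abundant and lower in every TRM-like sample, and Klrb1c was close to absent in 1 sample. They lie on the minus strand at chr6:129678924-129679223 for Klrc1, chr6:129660507-129660806 for Klrc2, chr6:129643239-129643538 for Klrc3, chr6:129623815-129624114 for Klrk1, and chr6:128788592-128788891 for Klrb1c. Capitals mark the letters of a searched motif on either strand.
Klrc1: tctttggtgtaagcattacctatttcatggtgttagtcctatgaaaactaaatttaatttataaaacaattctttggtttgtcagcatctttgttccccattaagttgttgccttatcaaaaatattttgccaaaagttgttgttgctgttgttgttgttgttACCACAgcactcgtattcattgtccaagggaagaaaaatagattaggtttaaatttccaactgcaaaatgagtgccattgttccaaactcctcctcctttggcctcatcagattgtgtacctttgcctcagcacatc
Klrc2: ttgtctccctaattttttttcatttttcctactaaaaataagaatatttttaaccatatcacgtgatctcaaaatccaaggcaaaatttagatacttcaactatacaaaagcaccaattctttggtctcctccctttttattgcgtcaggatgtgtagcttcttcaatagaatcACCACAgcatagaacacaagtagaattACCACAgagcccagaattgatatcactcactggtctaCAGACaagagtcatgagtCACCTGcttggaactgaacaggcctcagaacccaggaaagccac
Klrc3: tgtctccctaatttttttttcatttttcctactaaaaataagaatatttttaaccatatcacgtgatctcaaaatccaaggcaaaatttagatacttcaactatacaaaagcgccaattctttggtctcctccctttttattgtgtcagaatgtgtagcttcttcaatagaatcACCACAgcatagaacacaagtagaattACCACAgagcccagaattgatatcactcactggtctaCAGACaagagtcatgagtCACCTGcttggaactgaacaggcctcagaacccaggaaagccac
Klrk1: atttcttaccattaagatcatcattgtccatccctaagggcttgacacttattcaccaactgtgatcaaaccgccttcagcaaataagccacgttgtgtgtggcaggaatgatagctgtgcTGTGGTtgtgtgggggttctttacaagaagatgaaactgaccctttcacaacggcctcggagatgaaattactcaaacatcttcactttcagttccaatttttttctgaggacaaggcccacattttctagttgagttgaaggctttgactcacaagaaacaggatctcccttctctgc
Klrb1c: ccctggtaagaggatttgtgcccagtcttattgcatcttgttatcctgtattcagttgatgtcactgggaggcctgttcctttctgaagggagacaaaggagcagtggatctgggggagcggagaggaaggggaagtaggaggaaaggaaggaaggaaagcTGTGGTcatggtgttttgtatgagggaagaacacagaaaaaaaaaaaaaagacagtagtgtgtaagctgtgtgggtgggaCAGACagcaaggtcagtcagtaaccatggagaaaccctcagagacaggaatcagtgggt

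The windows of Klrc2 and Klrc3 were identical at 296 of 300 bases (98.7%), whereas the window of Klrc1 was as far from both as unrelated members were from each other, the highest identity in any other pair of the 8 members being 56.7%. The letters searched were GGTGTG for T-box factors, TGTGGT for RUNX factors, CAGAC for SMAD factors, CACCTG for the E-box read by ZEB factors, and TTCNNNGAA for STAT factors, and the T-box letters can run into those of RUNX or the reverse complement of the E-box. The 8 members had 11 windows, since Klrc2, Klre1, and Klra7 have 2 each, which overlap for Klrc2 and Klre1. The RUNX letters stood in 7 of the 11 windows, of 6 members (Klrk1, Klrc1, Klrc2, Klrc3, Klre1 in 1 of its 2, and Klrb1c), against 16.8% of 32851 promoters of the same length. SMAD letters stood in 7 windows, against 49.6%, and the T-box letters in 1, that of Klrb1f, against 19.0%. E-box letters stood in 3 windows (20.2% of all promoters) and STAT letters in 2 (8.3%). These are matches of letters and not sites at which binding was measured.

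The coding sequences are also close. Klrc2 and Klrc3 shared 632 identical bases, 95.3% of the shorter coding sequence, Klrc1 and Klrc2 shared 83.1%, and Klrc1 and Klrc3 85.5%. The longest identical run of Klrc1 and Klrc2 was 100 bases, the last of both coding sequences, bases 633 to 732 of Klrc1 and 615 to 714 of Klrc2. It is shown in lower case because a read wholly inside it matches both genes by itself.
Klrc1 and Klrc2: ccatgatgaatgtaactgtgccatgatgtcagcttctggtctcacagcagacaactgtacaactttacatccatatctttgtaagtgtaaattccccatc
Of all runs of 100 bases in the annotated transcripts, 14.1% for Klrc1, 7.0% for Klrc2, and 16.0% for Klrc3 also occur in another gene of the family. For Klra7 this was 1.0% and for Klrb1c 0.3%, and for the other 5 members it was 0. Of runs of 150 bases, the share was 4.0% for Klrc1, 2.4% for Klrc2, and 7.3% for Klrc3. How reads that map to several places were counted is not given in the sources used here, so the split of counts among the 3 Klrc genes is uncertain. Klrb1c shares 413 of its exon bases (12.9%) with Gm44511 on the same strand, a gene with 0 counts in every sample.

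Total counts were 18319013 to 23622621 per sample. The 12 CD8 T cell markers checked were present, with summed levels of 5445 to 5604 CPM (counts relative to library size, after TMM scaling) in TEff and 5431 to 7692 CPM in TRM-like samples. Cd4 had 0 to 2 counts per sample. Other markers of CD4 and unconventional T cells were higher, Trdc at 124.4 to 198.3 CPM and Zbtb7b at 16.88 to 40.25 CPM. The 8 B cell markers summed to 631.7 to 645.6 CPM in TEff and 704.8 to 1021 CPM in TRM-like samples. Most of this was Ighm (623.5 to 1008 CPM). Cd4 alone does not measure purity, which was not tested. TRM-like replicate 3 stood apart from replicates 1 and 2. Over 16718 genes with a mean of at least 10 counts, the median absolute difference in log2 CPM was 0.14 between TRM-like replicates 1 and 2, 0.40 between replicate 3 and their mean, and 0.26 between replicate 3 and the TEff mean. TRM-like replicates 1 and 2 also had counts on 61.8% and 65.5% of 1547 olfactory and vomeronasal receptor genes, which T cells are not known to use, and the other 4 samples on 3.0% to 3.6%. The level pooled over these genes was 0.0284 and 0.0289 RPKM (CPM per kilobase of gene) in TRM-like replicates 1 and 2 and 0.00381 to 0.00571 RPKM in the other 4 samples. Genes with a count numbered 35130 and 35559 in TRM-like replicates 1 and 2 and 24229 to 24908 in the other 4 samples. The members' tests and the counts of each gene list are therefore given with and without TRM-like replicate 3. Without it, the TRM-like group held only the 2 samples with this wider background. Group and background cannot be told apart in that fit, and its p-values are subject to this limit. In bulk RNA, fewer cells that express a gene and less RNA per cell cannot be told apart.

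With all 6 samples, 0 of the 10 members were called, a call being an adjusted p below 0.05 (edgeR quasi-likelihood test, Benjamini-Hochberg) with a log2 fold change beyond 0.58 in size (1.5-fold). Of all genes tested, 1.52% were called higher and 1.48% lower in TRM-like cells by this rule. One member, Klra7, had an unadjusted p under 0.05 (1 of 10), DESeq2 called 1 member, also Klra7, and limma-voom called 0. The log2 fold change was negative for 7 members and positive for 3, the 3 Klrc genes. In every one of the 10 members, the lowest CPM of the 6 samples was that of TRM-like replicate 3, which was the lowest sample for 20.5% of all genes tested. Without that sample, 3 members were called higher (Klrc1, Klrc2, and Klrc3) and 2 lower (Klrb1c and Klra7), where 6.38% of all genes tested were called higher and 7.67% lower. That fit sets TEff against only the 2 samples that had counts on most olfactory and vomeronasal receptor genes. The summed level of the 10 genes was 1035, 1168, and 1016 CPM in TEff replicates 1, 2, and 3, 1166 and 1240 CPM in TRM-like replicates 1 and 2, and 526.5 CPM in TRM-like replicate 3.

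**Figure D1:**
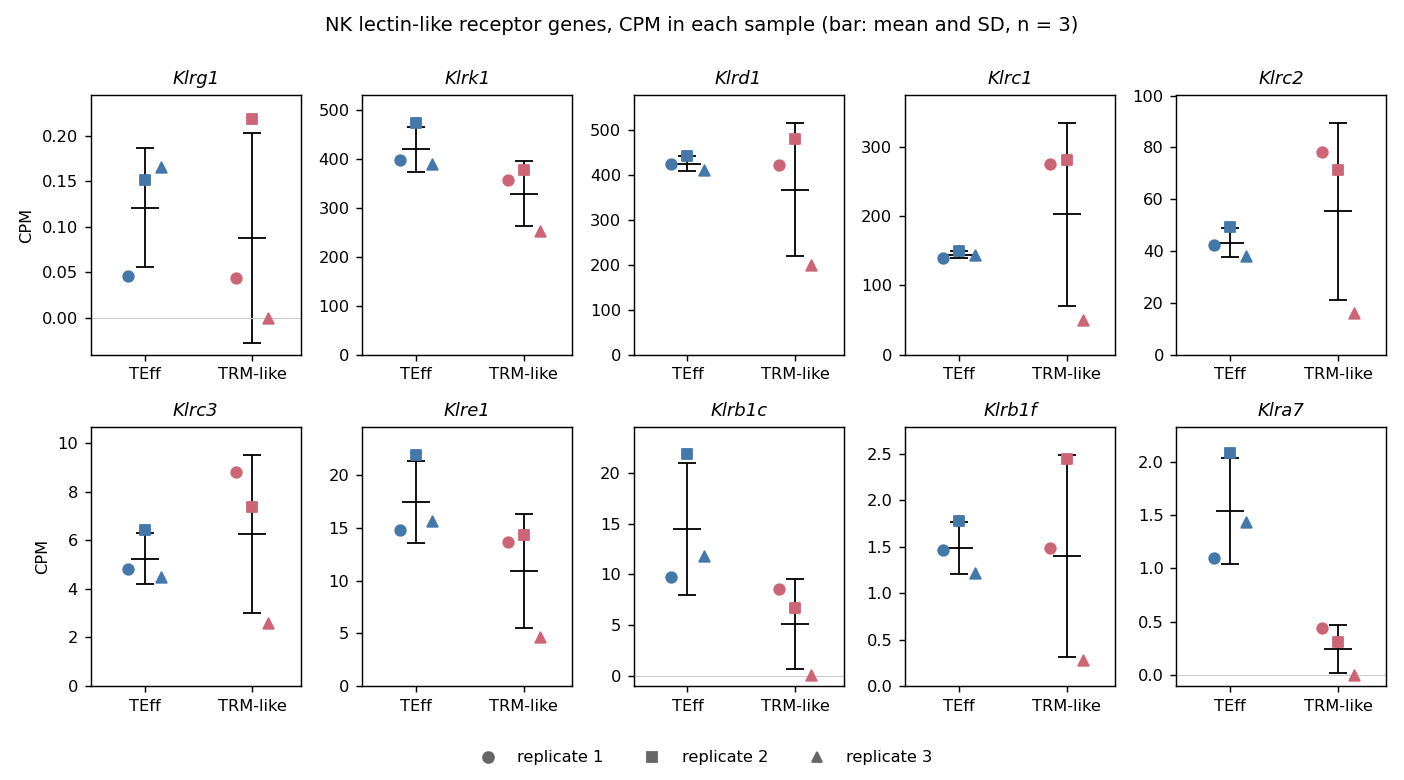
CPM of the 10 members in each sample, 1 panel per gene with its own linear axis, circles, squares, and triangles for replicates 1, 2, and 3, and bars for the mean and SD of the 3 samples of a group. TRM-like replicate 3 is the lowest sample in all 10 panels, and in the Klrc1, Klrc2, and Klrc3 panels the other 2 TRM-like samples lie above every TEff sample.

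Per length, the members spanned several orders of magnitude. In TEff cells the mean level was 446.7 ± 17.3 RPKM for Klrd1, 122 ± 13.4 RPKM for Klrk1, and 72.7 ± 2.31 RPKM for Klrc1 (SD, n = 3). Klre1 (13.5 ± 3.01 RPKM) and Klrc2 (13.4 ± 1.74 RPKM) came next and did not differ beyond their spread (SD, n = 3). Klrc3 (7.11 ± 1.42 RPKM) and Klrb1c (5.51 ± 2.47 RPKM) overlapped, as did Klra7 (1.22 ± 0.39 RPKM) and Klrb1f (0.87 ± 0.16 RPKM), and Klrg1 was last at 0.086 ± 0.046 RPKM (SD, n = 3). The transcripts of CD94 and NKG2D thus headed the 10 members, and the usual effector marker Klrg1 was the lowest of them. In TRM-like replicates 1 and 2, Klrc1 (139.0 and 141.8 RPKM) was above Klrk1 (103.8 and 109.9 RPKM), whereas in all TEff samples and in TRM-like replicate 3 it was below. In CPM, Klrk1 was above Klrc1 in every sample. The change of order thus rests on the deposited lengths, 1984 bases for Klrc1 and 3433 for Klrk1.

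Klrd1, the shared CD94 chain, was at 423, 443, and 410 CPM in TEff replicates 1, 2, and 3 and at 423, 479, and 199.7 CPM in TRM-like replicates 1, 2, and 3. TRM-like replicates 1 and 2 were within or above the TEff range, and replicate 3 was far below it. Its log2 fold change was -0.21 (SE 0.28, edgeR adjusted p = 0.790) and, without TRM-like replicate 3, 0.08 (SE 0.11, edgeR adjusted p = 0.676).

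Klrc1, the inhibitory NKG2A chain, was at 139.8, 149.0, and 144.1 CPM in TEff replicates 1, 2, and 3 and at 275.7, 281.3, and 50.3 CPM in TRM-like replicates 1, 2, and 3. The TRM-like samples thus lay on both sides of the TEff samples, replicates 1 and 2 above and replicate 3 below. The log2 fold change over all 6 samples was 0.49 (SE 0.50, edgeR adjusted p = 0.716). Without TRM-like replicate 3 it was 0.94 (SE 0.10, edgeR adjusted p = 2.52e-05), and with any other sample left out Klrc1 was not called.

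Klrc2, the activating NKG2C chain, was at 42.2, 49.1, and 38.0 CPM in TEff replicates 1, 2, and 3 and at 78.4, 71.3, and 16.1 CPM in TRM-like replicates 1, 2, and 3. Klrc3, the NKG2E chain, was at 4.80, 6.43, and 4.48 CPM in the TEff samples and at 8.81, 7.38, and 2.58 CPM in the TRM-like samples. Both had the same arrangement as Klrc1, with TRM-like replicates 1 and 2 above and replicate 3 below every TEff sample, which was seen in 5.74% of all genes tested. This likeness is subject to the uncertain split of counts among the Klrc genes. Over the 6 samples the log2 fold change was 0.36 for Klrc2 (SE 0.46, edgeR adjusted p = 0.779). It was 0.26 for Klrc3 (SE 0.39, edgeR adjusted p = 0.817). Without TRM-like replicate 3 the log2 fold changes were 0.79 for Klrc2 (SE 0.12, edgeR adjusted p = 0.000569) and 0.62 for Klrc3 (SE 0.19, edgeR adjusted p = 0.0312).

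The counts of the inhibitory chain Klrc1 and the activating chain Klrc2 kept a like proportion. Per length, Klrc1 was at 5.37, 4.92, and 6.14 times the level of Klrc2 in TEff replicates 1, 2, and 3 and at 5.70, 6.39, and 5.06 times that level in TRM-like replicates 1, 2, and 3, so the groups overlapped. Against its partner chain NKG2A differed among the samples. Per length, Klrc1 per Klrd1 was 0.158, 0.162, and 0.169 in the TEff samples, 0.313 and 0.282 in TRM-like replicates 1 and 2, and 0.121 in replicate 3. Klrd1 exceeded Klrc1, Klrc2, and Klrc3 together, per length, in every sample. These ratios were not tested, and those among the Klrc genes are subject to the uncertain split of counts given above.

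Klrk1, the NKG2D receptor, was at 397.8, 473.3, and 389.6 CPM in TEff replicates 1, 2, and 3 and at 356.4, 377.1, and 252.8 CPM in TRM-like replicates 1, 2, and 3. Every TRM-like sample was below every TEff sample, and TRM-like replicate 3 was the lowest. The groups did not overlap for 4 of the 10 members, all lower in TRM-like cells, and for 20.3% of all genes tested. The log2 fold change of Klrk1 was -0.35 (SE 0.18, edgeR adjusted p = 0.421) and -0.21 without TRM-like replicate 3 (SE 0.11, edgeR adjusted p = 0.243).

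Klrg1 was barely detected. It had 1, 3, and 3 counts in TEff replicates 1, 2, and 3 and 1, 5, and 0 counts in TRM-like replicates 1, 2, and 3. A count of 0 in TRM-like replicate 3 allows a level of up to 0.138 CPM (3 counts), for counting error only. Its highest level, 0.155 RPKM in TRM-like replicate 2, compares with a 95th percentile of 0.0791 RPKM among the olfactory and vomeronasal receptor genes of that sample. The log2 fold change of -0.40 (SE 1.04, edgeR adjusted p = 0.897) was below its SE, and a difference was not detectable at this depth.

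Klre1 was at 14.9, 22.0, and 15.6 CPM in TEff replicates 1, 2, and 3 and at 13.7, 14.3, and 4.66 CPM in TRM-like replicates 1, 2, and 3. The groups did not overlap, by a narrow margin in TRM-like replicate 2. Its log2 fold change was -0.68 (SE 0.37, edgeR adjusted p = 0.457) and -0.33 without TRM-like replicate 3 (SE 0.16, edgeR adjusted p = 0.191). Of its partner genes, Klri2 was called lower, and Klri1 had too few counts to be tested.

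Klrb1c, which encodes the NK1.1 antigen, was at 9.79, 21.9, and 11.8 CPM in TEff replicates 1, 2, and 3 and at 8.55, 6.68, and 0.0922 CPM in TRM-like replicates 1, 2, and 3. All TRM-like samples were below all TEff samples, and TRM-like replicate 3 had 2 counts, against 196 and 153 in replicates 1 and 2. Its log2 fold change was -1.50 (SE 0.82, edgeR adjusted p = 0.465) and -0.94 without TRM-like replicate 3 (SE 0.28, edgeR adjusted p = 0.0299). Klrb1f, a receptor for the Clr-g protein encoded by Clec2i, was at 1.46, 1.77, and 1.22 CPM in the TEff samples and at 1.48, 2.45, and 0.277 CPM in TRM-like replicates 1, 2, and 3. The groups overlapped, and the log2 fold change was -0.08 (SE 0.58, edgeR adjusted p = 0.968) with all samples and 0.39 without TRM-like replicate 3 (SE 0.30, edgeR adjusted p = 0.416).

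Klra7, the Ly49G receptor, had 24, 41, and 26 counts in TEff replicates 1, 2, and 3 and 10, 7, and 0 counts in TRM-like replicates 1, 2, and 3, or 1.10, 2.08, and 1.44 CPM against 0.436, 0.306, and 0 CPM. Every TRM-like sample was below every TEff sample. Its log2 fold change was -2.59 (SE 0.66, edgeR adjusted p = 0.085), the largest in size among the members, and without TRM-like replicate 3 it was -2.04 (SE 0.42, edgeR adjusted p = 0.00397). DESeq2 called it with all 6 samples (DESeq2 adjusted p = 0.00241). In simulated counts 14.5% of DESeq2 calls were false, against 6.1% for edgeR. Those counts used edgeR's dispersions and held no sample that stood apart, so they do not measure how reliable this call is.

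**Figure D2:**
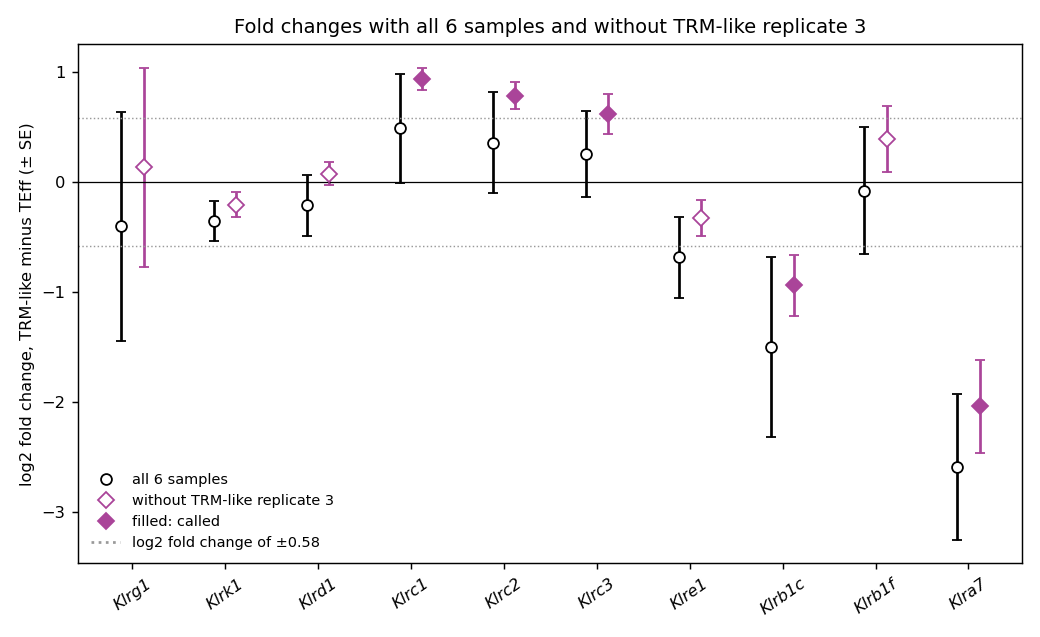
Log2 fold change (TRM-like minus TEff, ± SE) of each member with all 6 samples (circles) and without TRM-like replicate 3 (diamonds), filled where called. No circle is filled, and the filled diamonds are those of Klrc1 (0.94), Klrc2 (0.79), and Klrc3 (0.62) above 0 and Klrb1c (-0.94) and Klra7 (-2.04) below it.

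The share each member took of the summed CPM of the 10 genes also differed among TRM-like samples. Klrc1 took 13.5%, 12.8%, and 14.2% in TEff replicates 1, 2, and 3, 23.6% and 22.7% in TRM-like replicates 1 and 2, and 9.55% in replicate 3. Klrk1 took 38.3% to 40.5% in TEff samples, 30.6% and 30.4% in TRM-like replicates 1 and 2, and 48.0% in replicate 3. Klrd1 kept 36.3% to 40.9% in all 6 samples. Relative to the mean of TRM-like replicates 1 and 2, replicate 3 was at 0.689 times the CPM for Klrk1, 0.443 times for Klrd1, 0.181 times for Klrc1, 0.215 times for Klrc2, and 0.012 times for Klrb1c.

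Of 22 other genes of the family, 20 were in the table, 14 were tested, and 0 were called higher and 4 lower in TRM-like cells with all samples, and 2 higher and 4 lower without TRM-like replicate 3. Klrh1, another lectin-like receptor of the complex, was at 90.4, 106, and 117 CPM in TEff replicates 1, 2, and 3 and at 35.8, 42.4, and 16.3 CPM in TRM-like replicates 1, 2, and 3, a log2 fold change of -1.73 (SE 0.31, edgeR adjusted p = 0.0183). Klri2, a partner of Klre1, had a log2 fold change of -0.95 (edgeR adjusted p = 0.0214). Of the Ly49 genes, Klra3 (Ly49C) fell by 2.77 on the log2 scale (edgeR adjusted p = 0.0107) and Klra17 (Ly49Q) by 3.03 (edgeR adjusted p = 0.0151). All 4 were called without TRM-like replicate 3 as well, and each lost its call when any 1 TEff sample was left out, with the adjusted p then reaching 0.0739 for Klra3, 0.095 for Klra17, 0.113 for Klrh1, and 0.114 for Klri2 in the edgeR test. Klri2 also lost it without TRM-like replicate 1. The list's median log2 fold change was -0.10, beside -0.28 for the 10 members and 0.02 for all genes tested. Without TRM-like replicate 3 the medians of both lists turned positive, to 0.16 for the list and 0.11 for the members, beside 0.02 for all genes tested.

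Other family genes, picked after their values were seen, stood above the TEff samples in TRM-like replicates 1 and 2 but not in replicate 3. Klra5 (Ly49E) was at 63.5 and 58.7 CPM in TRM-like replicates 1 and 2 and at 15.4 CPM in replicate 3, within the 11.8 to 17.1 CPM of the TEff samples. Klrb1b, an inhibitory NKR-P1 receptor for the Clr-b protein of Clec2d, was at 5.63 and 6.29 CPM in TRM-like replicates 1 and 2 and at 0.0915 to 0.506 CPM in the other 4 samples. Klrb1a had 31 and 46 counts in TRM-like replicates 1 and 2 and 0 in each other sample, and so was not tested. The RPKM of Klrb1b in these 2 samples, 2.53 and 2.82, was above the 95th percentile of the olfactory and vomeronasal receptor genes there, 0.0674 and 0.0791 RPKM. Neither Klra5 (log2 fold change 1.67, SE 0.44, edgeR adjusted p = 0.0959) nor Klrb1b (4.06, SE 1.16, edgeR adjusted p = 0.124) was called with all samples, and both were called higher without TRM-like replicate 3.

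The next counts cover the span of 1455 kb between Klrb1c and Klra7, the outermost members of the complex. Genes of the family more than 50 kb beyond it, such as Klra3, called lower above, were not counted. Within 50 kb of this span, 28 of 37 protein-coding genes were tested, and 1 was called higher and 4 lower with all samples. Of all genes tested, 1.52% were called higher and 1.48% lower. Without TRM-like replicate 3, 27 were tested, 7 called higher and 6 lower, beside 6.38% and 7.67% of all genes tested. These calls include the members given above, 3 higher and 2 lower. Genes called in opposite directions lay next to each other. The 3 Klrc genes, called higher without that sample, lie 47.4 to 74.3 kb from the start of Klrd1, and Klri2 and Klrh1, called lower, lie 137.3 and 174.9 kb from it on the same side. Of 18 listed neighbours that are not of the family, 11 were tested, with 1 called higher and 0 lower with all samples and 2 higher and 0 lower without TRM-like replicate 3. That list left out BC035044, a gene of the span picked after its values were seen, which was called lower with all samples (log2 fold change -1.92) and without TRM-like replicate 3 (-1.98). The neighbour called higher with all samples was Cd69, an early activation and residency marker, with 39.1 to 44.8 CPM in the TEff samples and 77.4, 79.8, and 60.9 CPM in TRM-like replicates 1, 2, and 3 (log2 fold change 0.79, SE 0.14, edgeR adjusted p = 0.0223). Cd69 kept its call without TRM-like replicate 3 and lost it without any other sample, at an adjusted p of up to 0.137 in the edgeR test. Clec12a (log2 fold change 1.23, edgeR adjusted p = 0.122) and Clec2i (0.34, edgeR adjusted p = 0.310) had the next smallest p-values, and Clec12a was called higher without TRM-like replicate 3 (1.57, edgeR adjusted p = 1.03e-06).

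**Figure D3:**
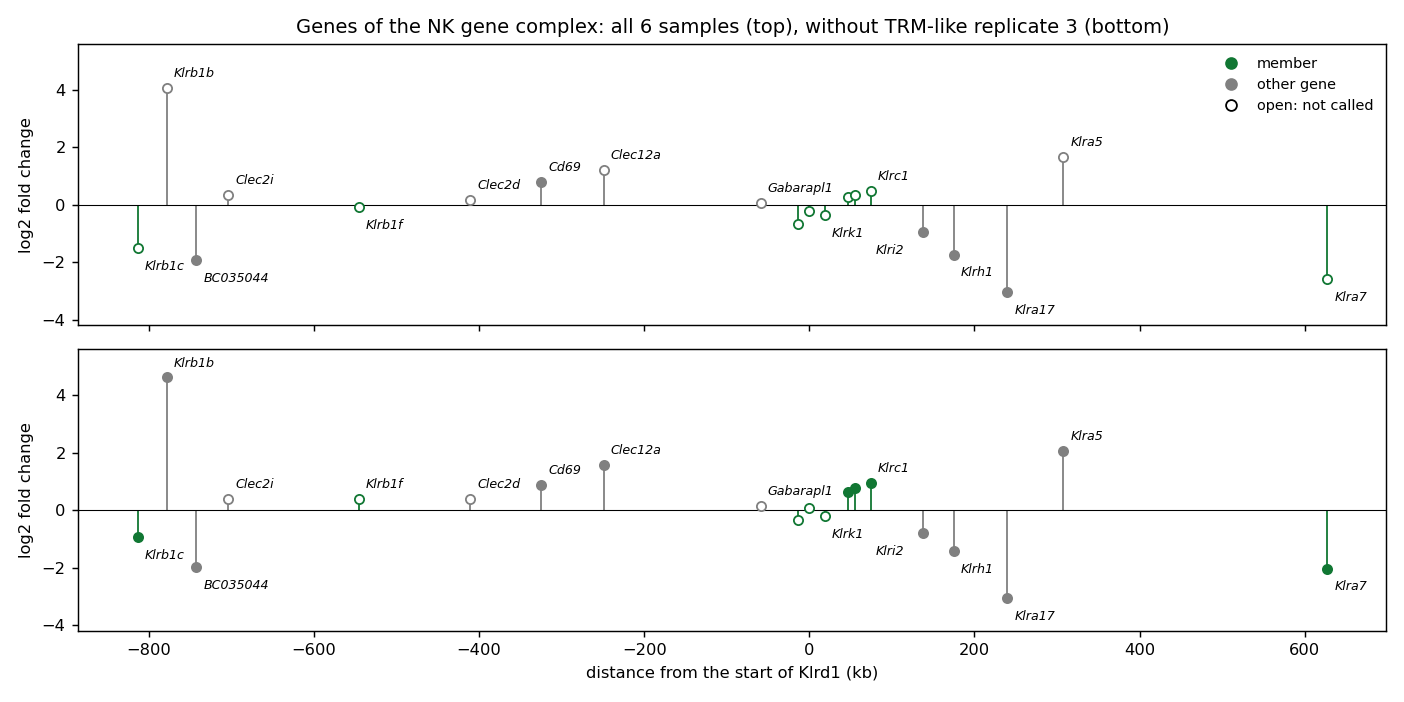
Log2 fold change (TRM-like minus TEff) of 20 tested genes of the NK gene complex with a mean of at least 0.5 CPM, by distance in kb of the gene start from the start of Klrd1, with all 6 samples (top) and without TRM-like replicate 3 (bottom), members in green, other genes in grey, and filled points for called genes. The stretch drawn runs from Klrb1c to Klra7, the outermost members, and leaves out genes of the complex beyond them. Genes called higher and lower are interspersed along it. The Klrc genes to the right of Klrd1 are filled in the lower panel but not in the upper.

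The adaptors that carry the signal of the activating members were read out next. Of 25 signalling partners, all were tested, 2 were called higher and 0 lower, and without TRM-like replicate 3 7 were called higher and 3 lower. For this and the other lists, the shares of all genes tested were 1.52% higher and 1.48% lower with all samples. Without TRM-like replicate 3 they were 6.38% and 7.67%. Inpp5d, the lipid phosphatase SHIP-1, rose by 0.93 on the log2 scale (SE 0.13, edgeR adjusted p = 0.00487), and the kinase gene Fyn by 0.81 (SE 0.16, edgeR adjusted p = 0.0313). Inpp5d lost its call without TEff replicate 3 (edgeR adjusted p = 0.0521), and Fyn kept it without TRM-like replicate 3 alone (1 of 6 such fits). Sh2b3, an adaptor that dampens cytokine signals, was next, with a log2 fold change of 0.73 (edgeR adjusted p = 0.0596), and was called higher without TRM-like replicate 3 (0.79, edgeR adjusted p = 0.0021).

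The following adaptor genes were picked after their values were seen. Hcst, which encodes the DAP10 adaptor of NKG2D, was at 29.9, 46.0, and 32.0 CPM in TEff replicates 1, 2, and 3 and at 63.9, 76.4, and 37.1 CPM in TRM-like replicates 1, 2, and 3. Replicates 1 and 2 were above every TEff sample and replicate 3 was among them, with a log2 fold change of 0.72 (SE 0.27, edgeR adjusted p = 0.251) over all samples and 0.95 (SE 0.16, edgeR adjusted p = 0.00103) without TRM-like replicate 3. Per length, Klrk1 was at 1.72, 1.32, and 1.56 times Hcst in TEff replicates 1, 2, and 3 and at 0.719, 0.636, and 0.878 times in TRM-like replicates 1, 2, and 3. NKG2D transcripts per length thus exceeded those of Hcst in every TEff sample and were below them in every TRM-like sample. In CPM, Klrk1 was above Hcst in every sample. Which gene is higher thus rests on the deposited lengths, 3433 bases for Klrk1 and 442 for Hcst. The ratio of Klrk1 to Hcst was not tested.

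Tyrobp, which encodes DAP12, was at 0.774 to 1.11 CPM in the TEff samples, at 7.63 and 8.34 CPM in TRM-like replicates 1 and 2, and at 0.692 CPM in replicate 3. Fcer1g, the adaptor of NKR-P1C and CD16, was at 1.14 to 2.54 CPM in the TEff samples, at 16.7 and 18.1 CPM in TRM-like replicates 1 and 2, and at 0.922 CPM in replicate 3. Both adaptors were thus at the lowest level of all samples in TRM-like replicate 3. The log2 fold changes were 2.64 for Tyrobp (SE 0.74, edgeR adjusted p = 0.117) and 2.67 for Fcer1g (SE 0.83, edgeR adjusted p = 0.164), and among the fits that left out a sample both genes were called in that without TRM-like replicate 3 alone, at 3.15 for Tyrobp (edgeR adjusted p = 5.43e-07) and 3.21 for Fcer1g (edgeR adjusted p = 4.16e-07).

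Tyrobp, Fcer1g, and Klrb1b are also NK cell markers. The summed level of 13 NK cell markers was 77.8 to 117 CPM in TEff samples, 258 and 240 CPM in TRM-like replicates 1 and 2, and 118.5 CPM in replicate 3. Of the 12 that were tested, 2 were called higher (Cd244a and Txk) and 1 lower (Klri2) with all samples, and 6 higher and 1 lower without TRM-like replicate 3. Cd244a, the most abundant of them in the TRM-like samples, was at 120, 110, and 60.5 CPM in TRM-like replicates 1, 2, and 3 and at 14.1 to 20.8 CPM in TEff samples. Cd244a thus held a large part of the sum in the TRM-like samples. Ncr1, a defining receptor of NK cells, had 0 to 6 counts per sample, the highest in TRM-like replicates 1 and 2. Klra4, Klra8, and Klra9, of the same list, had 0 to 5 counts. Of 10 myeloid and dendritic and 6 B cell markers tested, 0 were called with all samples. Without TRM-like replicate 3, 1 of 9 and 2 of 6 were called higher. The part of NK or other cells in the levels of the members was not tested.

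Of 21 listed genes of ligands, 17 were in the table and 14 tested, with 1 called higher and 0 lower. The gene called was Cdh1, which encodes E-cadherin, a ligand of KLRG1, with 0.457 to 0.709 CPM in TEff samples and 63.8 to 72.9 CPM in TRM-like samples (log2 fold change 6.83, SE 0.20, edgeR adjusted p = 1.75e-06). The ligand was thus present in every TRM-like sample, while Klrg1 itself had at most 5 counts. Ulbp1, a ligand of NKG2D, had a log2 fold change of -0.48 (SE 0.16, edgeR adjusted p = 0.207), with 78.8 to 94.0 CPM in TEff and 54.0 to 77.4 CPM in TRM-like samples, and was called lower without TRM-like replicate 3. Clec2i, a ligand of NKR-P1F, was at 34.2 to 43.6 CPM in TEff and at 43.5 to 50.7 CPM in TRM-like samples. H2-T23, which encodes the Qa-1 ligand of CD94 and NKG2A and was picked after its values were seen, was at 136 to 186 CPM in TEff samples and at 243, 266, and 130 CPM in TRM-like replicates 1, 2, and 3. Klrc1 and H2-T23 were thus both above the TEff samples in TRM-like replicates 1 and 2 and both below them in replicate 3. In replicate 3, H2-T23 was just below the lowest TEff sample (130 against 136 CPM) and Klrc1 far below it (50.3 against 139.8 CPM). This arrangement was seen in 2 of the 14 ligand genes tested, the other being H2-K1, and in 5.74% of all genes tested. The log2 fold change of H2-T23 was 0.45 (SE 0.26, edgeR adjusted p = 0.488) and, without TRM-like replicate 3, 0.70 (SE 0.13, edgeR adjusted p = 0.00207). Without that sample, 13 ligand genes were tested, 2 called higher and 1 lower.

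**Figure D4:**
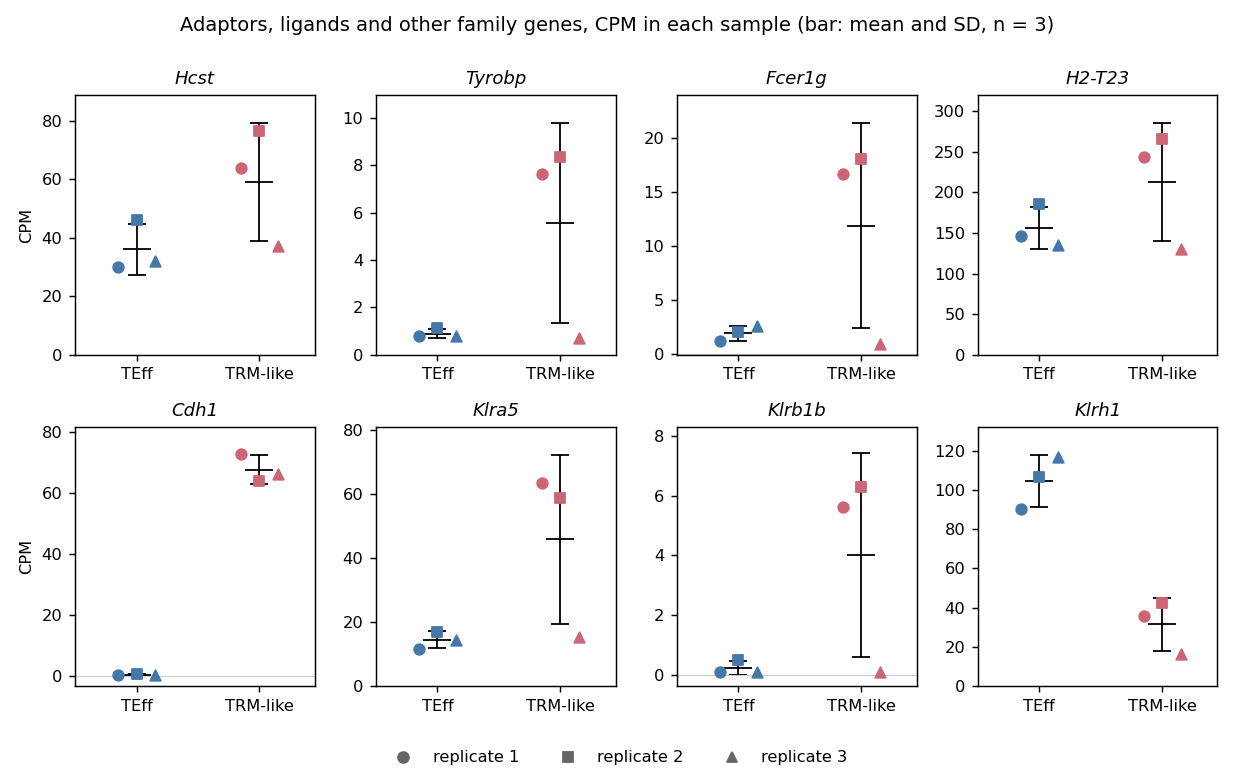
CPM in each sample of adaptor genes (Hcst, Tyrobp, Fcer1g), ligand genes (H2-T23, Cdh1), and other genes of the family (Klra5, Klrb1b, Klrh1), 1 linear axis per panel, with markers for the replicates and bars for the mean and SD of a group. Cdh1 and Klrh1 separate all 3 TRM-like samples from TEff, whereas in the panels of Tyrobp, Fcer1g, Klra5, and Klrb1b TRM-like replicate 3 lies at or just below the TEff level.

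Among 23 transcription factors and signal regulators known to act on these receptors or on effector CD8+ T cells, 0 were called higher and 3 lower with all samples, and 2 higher and 7 lower without TRM-like replicate 3. Eomes, a T-box factor of NK and memory T cells, fell by 2.09 on the log2 scale (SE 0.25, edgeR adjusted p = 0.00308), Runx1 by 2.90 (SE 0.35, edgeR adjusted p = 0.00301), and Smad3, a mediator of TGF-β signals, by 2.98 (SE 0.39, edgeR adjusted p = 0.00448). These 3 kept their call with each sample left out in turn. Of 26 tested genes that go with KLRG1 on effector cells, 2 were called higher and 6 lower with all samples, and 3 higher and 10 lower without TRM-like replicate 3. With all samples, those lower were S1pr1 (log2 fold change -2.33), Gzmb (-1.91), Prf1 (-2.68), Ly6c2 (-2.02), Ahnak (-1.15), and S100a4 (-1.26), and those higher were the chemokine receptor Cx3cr1 (3.79) and Adgrg1 (5.99), which encodes GPR56. Cx3cr1 was at 11.4, 11.0, and 1.43 CPM in TRM-like replicates 1, 2, and 3, and at 0.503 to 0.663 CPM in TEff samples. Its call was lost in 5 of the 6 fits with a sample left out, up to an adjusted p of 0.156 in the edgeR test, and kept without TRM-like replicate 3. Ahnak likewise kept its call only without TRM-like replicate 3, and Adgrg1 lost it without TEff replicate 1 or 2.

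The genes whose profile over the 6 samples was most like that of a member were sought among 11580 protein-coding genes with a mean of at least 10 counts, by the root mean square difference of mean-centred log2 CPM. For Klrk1 they were Arhgap45 (0.037), B4galnt1 (0.040), and Hrh2 (0.042). For Klrd1 they were Sh3tc1 (0.076), Vamp1 (0.081), and Rab19 (0.083). For Klrg1 they included Syp (0.20) and Ebi3 (0.28), where Klrg1 itself had 0 to 5 counts per sample. TRM-like replicate 3 was the lowest sample in these 8 genes. They were chosen for likeness to members in which it was lowest, so this follows from the choice.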

How the data were processed

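Total RNA of 6 samples was sequenced with a stranded kit, and the authors trimmed the reads with Cutadapt 4.8, mapped and counted them with Rsubread against GENCODE (GRCm39). The deposited values are raw counts per gene, not normalized, beside each gene's length. Their strand setting and treatment of reads mapping to several places are not given in the sources used here. The submitters' processing notes also name DESeq2 1.40.2, and the authors removed a batch effect from transformed values that neither the labels nor their methods name, so none was removed here. Symbols and positions were read from GENCODE M39 (GRCm39), in which 56620 of 57126 genes were found by identifier.

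Counts were tested with edgeR 4.0.16 (glmQLFit, glmQLFTest, TMM, group as the only term) in R 4.3.3 over the 26154 genes counted at least 1 time in 3 or more samples, with Benjamini-Hochberg adjustment over all of them. The authors' threshold was used (adjusted p below 0.05, absolute log2 fold change above 0.58). SEs were taken as the absolute log2 fold change over the root of F. CPM and RPKM were computed from the counts, TMM library sizes, and the deposited lengths. Alternatives were DESeq2 1.42.0, limma-voom (limma 3.58.1), other normalizations and filters, the adjusted p alone, the replicate number as a block, and each sample left out. In simulated counts with 200 of 25299 genes changed 4-fold, edgeR recovered 92.5% with 6.1% false among its calls, and DESeq2 91.5% with 14.5% false. These counts were drawn with edgeR's dispersions and no sample set apart, unlike TRM-like replicate 3 in the data.

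The members and gene lists were chosen with earlier results of these data known. The text names all 10 members, the called genes of each of the 7 lists that are not cell type markers (with fewer than 3 called, those with the smallest p up to 3), and for Klrg1, Klrk1, and Klrd1 the 3 genes of the most similar profile (log2 CPM with a prior count of 2). For Klrg1, 1 of these genes is not reported here. Genes named outside this rule are said to be so. Cell type markers (Cd4, Trdc, Zbtb7b, Ighm, Ncr1, Klra4, Klra8, Klra9, and Txk) are named as markers, outside this rule.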

Additional observations from a re-analysis of the deposited data

How the results depend on the processing

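The call of 0 members with all 6 samples depended most on TRM-like replicate 3. With each sample left out, 0 to 3 members were called higher and 0 to 2 lower, and every one of these calls came without TRM-like replicate 3. Over all genes, the same fits called 263 to 3579 genes (119 to 1625 higher and 144 to 1954 lower), against 786 with all samples, and the highest values again came without TRM-like replicate 3. DESeq2 called 1 member lower and 1256 genes (668 higher, 588 lower). With no filter, 3 members were lower (Klre1, Klrb1c, and Klra7) and 1868 genes were called (1002 higher, 866 lower), with infinite prior degrees of freedom. With the replicate block, 3 members were lower and 2034 genes were called (955 higher, 1079 lower), again with infinite prior degrees of freedom. With the replicate block over genes with a mean of at least 10 counts, chosen after seeing the data, 1 member (Klra7) was lower and 1207 genes were called, 615 of them lower. The numbers share no stated animal or batch. The correlation of same-numbered samples' deviations from their group means was -0.224, 0.231, and 0.315 for replicates 1, 2, and 3 over 16718 genes, and the highest, 0.443, joined TEff replicate 2 and TRM-like replicate 1, so the numbers were not taken to pair the samples. The sign of 5 member values turned, Klrg1 without TRM-like replicate 3 (range over the fits with a sample left out, -2.137 to 0.135), Klrd1 without the same sample (-0.454 to 0.076), Klrc3 without TRM-like replicate 1 (-0.068 to 0.619), and Klrb1f without TRM-like replicate 3 or TEff replicate 2 (-0.746 to 0.390). Of 147 member values under the alternatives, 129 kept their sign and side of the threshold. Of the 27 called genes of the 7 lists other than markers, 13 kept the call in all 6 fits with a sample left out. Other normalizations, the stricter filters, limma-voom, and the adjusted p alone called 0 members. In limma-voom, Cx3cr1, Adgrg1, and Cd160 lost their call. The cause of these changes was not tested. Depth limits what can be said of Klrg1, Klrb1f, and Klra7, which had at most 56 counts in any sample.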

Other observations

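Receptors known from NK cells but outside the lectin-like family moved in both directions. Of 18 tested, 5 were called higher and 3 lower in TRM-like cells with all samples, and 8 higher and 3 lower without TRM-like replicate 3. With all samples, those higher were Cd244a (log2 fold change 2.42, edgeR adjusted p = 0.00198), a SLAM family receptor, Cd226 (1.50, edgeR adjusted p = 0.0306) and Cd96 (1.48, edgeR adjusted p = 0.0107), which share the ligand CD155, Cd160 (1.52, edgeR adjusted p = 0.0393), and Slamf7 (0.65, edgeR adjusted p = 0.0218). Those lower were Slamf6 (-3.27, edgeR adjusted p = 0.000348), Havcr2 (-2.38, edgeR adjusted p = 0.000209), and Il18rap (-1.83, edgeR adjusted p = 0.000392). TRM-like replicate 3 was the lowest sample for 11 of the 18 genes (61.1%), beside 20.5% of all genes tested. In TRM-like replicates 1 and 2, 5 of the 18 (27.8%) were above every TEff sample while below every one in replicate 3, beside 5.74% of all genes tested. Among the 5 higher genes, which were chosen by their call over all 6 samples, Cd96 was at 566, 624, and 321 CPM in TRM-like replicates 1, 2, and 3 and at 176 to 190 CPM in TEff samples. The 3 lower genes and Cd244a kept their call with each sample left out. Cd226, Cd160, and Slamf7 kept it only without TRM-like replicate 3, with an adjusted p of up to 0.203 for Cd160 in the edgeR test, and Cd96 lost it without any 1 TEff sample.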
